A study of Homo sapiens with 6 samples.

Results

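The 10 genes of T cell costimulation and checkpoint control followed here in THP1 cells were CD80, CD86, ICOSLG, CD40, CD83, CD274, PDCD1LG2, CD276, VSIR and HAVCR2. The members were all probe sets that the array annotation assigns to exactly 1 of these symbols, which gave 29 of 54613 probe sets and 10 of 19775 genes. THP1 is an established line of monocytic acute myeloid leukaemia. One group of 3 samples is labelled untreated, and the treatment protocol calls the control vehicle. The other group of 3 samples was kept for 48 hours on a Dll4-Fc coating. Dll4-Fc is a fusion of Delta-like 4, a ligand of Notch receptors, with the Fc region of an antibody. The dose is not settled, since it is 30 nM in the protocol and 60 nM in the sample labels. No group with the Fc part alone is named in the labels, so an effect of Delta-like 4 and one of the Fc part cannot be told apart. Each sample was hybridised to 1 Affymetrix U133 Plus 2.0 array. The series title names Notch activation and its effect on homeostasis and differentiation of leukaemia cells as the subject of the study. Nothing in the labels says whether the 3 samples of a group were separate cultures, so p-values measure only how these samples vary, and that variation may be technical.

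T cells need a signal from the antigen receptor and a costimulatory one. Antigen-presenting cells give the latter through CD80 and CD86, which bind CD28 and its inhibitory relative CTLA4, and through ICOSLG, the ligand of ICOS. CD40 is the receptor through which activated T cells license antigen-presenting cells, and CD83 marks mature dendritic cells. Checkpoint ligands restrain T cells: CD274 (PD-L1) and PDCD1LG2 (PD-L2) bind PD-1, while CD276 (B7-H3) and VSIR (VISTA) are further inhibitory members of the B7 family. HAVCR2 (TIM-3) is itself an inhibitory receptor, found on exhausted T cells and also on monocytes and dendritic cells. CD40 and HAVCR2 are therefore receptors rather than ligands.

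In cells on Dll4-Fc, 6 of the 10 genes were higher and 0 were lower: HAVCR2, CD86, CD83, CD274, CD276 and VSIR. The largest rise was that of HAVCR2, 36.1-fold, followed by CD86 at 6.95-fold and CD83 at 3.27-fold, each by the probe set whose mean signal over all 6 arrays was highest, called the brightest here. That mean includes the Dll4-Fc arrays, so for HAVCR2 and CD86 the rise itself picked the probe set. Read on the probe set brightest in untreated arrays alone, 1949 of all 19775 genes were higher and 2434 lower. By that choice, made after the data were seen, 5 of the 10 members were higher and 0 lower. CD83 then had the largest rise, HAVCR2 rose 1.92-fold (1555628_a_at, 0.94 ± 0.10, adjusted p = 0.000465), and CD86 was not called (205685_at, 0.38 ± 0.19, adjusted p = 0.238). CD276, VSIR and CD274 rose by less than 2-fold. CD80, CD40, PDCD1LG2 and ICOSLG did not pass the test by their brightest probe sets. A gene or probe set is called higher or lower where limma's moderated test gave an adjusted p under 0.05 over all 54613 probe sets. By that rule 22.1% of all genes were called, 10.1% higher and 12.1% lower. The 10 genes and the lists below were chosen with earlier results of these data known, so such shares give scale only. The groups did not overlap for the same 6 genes, with Dll4-Fc above untreated, as for 18.2% of all genes. At least 2-fold, 3 of the 10 genes were higher, against 2.6% of all genes. By the probe sets brightest in untreated arrays it was 1 of the 10, and the matching share of all genes was not counted. The median log2 difference was 0.73 over the 10 genes (0.52 by those probe sets) and -0.01 over all genes (-0.02 by those probe sets). Under cyclic loess normalization the share of higher genes among all called genes moved from 45.4% to 55.8%, while the members stayed at 6 higher and 0 lower.

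Counted by probe set, 13 of 29 were higher and 0 lower, against 7.21% higher and 9.26% lower among all probe sets. The groups did not overlap, with Dll4-Fc above untreated, for 15 of the 29, against 14.1% of all probe sets. Of the 16 that did not pass, 14 had a difference above 0, some as small as 0.01. The matching share over all probe sets was not counted, and probe sets of the same gene are not independent. All probe sets of HAVCR2, CD83 and VSIR were higher. No probe set of CD80, CD40 or PDCD1LG2 passed.

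**Figure D1:**
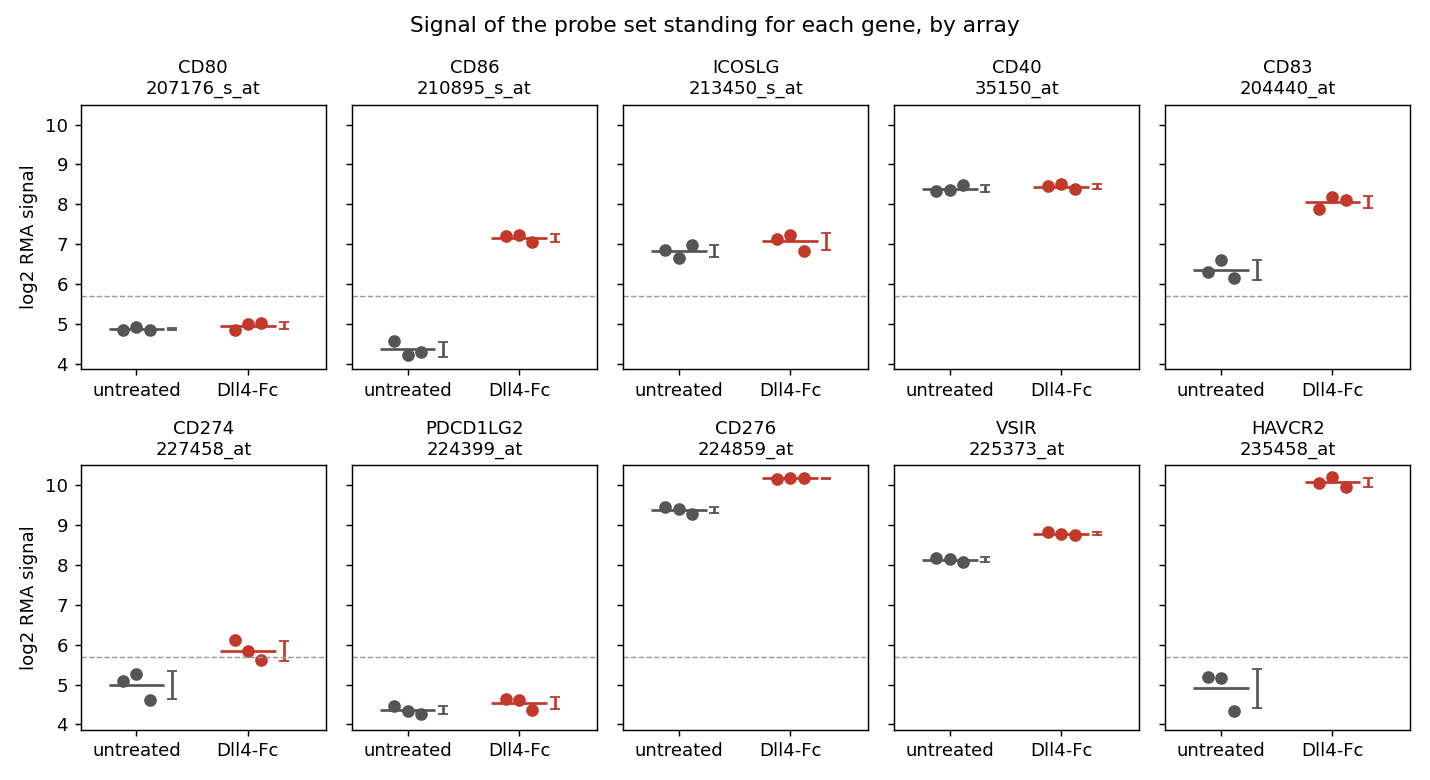
Log2 signal of the brightest probe set of each of the 10 genes on each array (grey, untreated; red, Dll4-Fc), with the group mean as a line and the SD of 3 arrays as a bar. The dashed line is the median log2 signal of all probe sets, 5.70. HAVCR2, CD86 and CD83 show the widest gaps between the groups, and CD80 and PDCD1LG2 stay below the dashed line in both.

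As a check of the cell label, 8 of 9 myeloid markers were measured under 1 symbol. PTPRC (CD45) and LYZ (lysozyme) were brightest in untreated arrays, with mean log2 signals of 11.68 and 11.87. The rest had untreated means from 4.98 for CD14, below the median probe set signal of 5.70, to 8.39 for CD4, with MPO at 6.65. Of these markers 6 rose and 1 fell, MPO, a granule enzyme (-0.79 ± 0.11; ± after a difference is its standard error, n = 3 per group). Among all genes 10.1% were higher and 12.1% lower. MPO fell on 1 of its 2 probe sets, and ITGAM rose on 1 of 2. CD14, the monocyte coreceptor for lipopolysaccharide, rose by 5.64 ± 0.20. None of 6 T cell markers, 3 B cell markers or 3 fibroblast and epithelial markers passed by their brightest probe sets. COL1A1, a fibroblast marker, was higher on 1 of its 5 probe sets. Of 4 NK cell markers 1 rose, GNLY (granulysin), by 5.30 ± 0.12, and the summed intensity of this list went from 210 to 244 in untreated arrays to 1432 to 1582 with Dll4-Fc. Without GNLY the sums were 178 to 205 and 189 to 224, and NCAM1, NCR1 and KLRD1 did not pass; whether the rise of GNLY goes with the results below was not tested. In bulk RNA, more cells carrying a transcript and more transcript per cell cannot be told apart.

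Among the activating B7 ligands, CD86 rose while CD80 did not pass. The brightest CD86 probe set, 210895_s_at, had log2 signals of 4.57, 4.21 and 4.29 in untreated and 7.21, 7.22 and 7.05 in Dll4-Fc arrays. The groups lay far apart, and the arrays within each group stood close together. The difference was 2.80 ± 0.11 (95% interval 2.55 to 3.04, adjusted p = 1.55e-06). A second CD86 probe set, 205686_s_at, went from 4.03 ± 0.07 to 5.33 ± 0.12 (SD, n = 3), a difference of 1.30 ± 0.08 (adjusted p = 3.04e-05). The third, 205685_at, read 5.28, 4.76 and 5.58 without and 5.47, 5.68 and 5.62 with Dll4-Fc. Its groups overlapped and its difference of 0.38 ± 0.19 did not pass (adjusted p = 0.238). Both CD86 probe sets that rose have IDs ending in _s_at, the array's mark for probes that can match several transcripts, so the rise rests on such probe sets. Without them CD86 was not called. All 3 CD86 probe sets had untreated means below the median probe set signal of 5.70 (4.36, 4.03 and 5.21). The fold of CD86 is therefore uncertain in size.

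CD80, the other ligand of CD28, was dim on all 3 of its probe sets, with group means from 3.08 to 4.95, below the median probe set signal of 5.70. Its brightest, 207176_s_at, read 4.85, 4.91 and 4.85 in untreated and 4.85, 5.00 and 5.01 in Dll4-Fc arrays. These groups overlapped and the difference was 0.09 ± 0.07 (95% interval -0.08 to 0.25, adjusted p = 0.51). The interval holds for this probe set alone and cannot exclude a larger change of CD80. CD86 205685_at likewise had an interval of -0.05 to 0.81, while 210895_s_at of the same gene rose by 2.80. The CD80 probe set 1554519_at separated the groups, at 3.96 to 4.13 and 4.15 to 4.50, but its difference of 0.29 ± 0.10 did not pass (adjusted p = 0.0927). RMA compresses differences of dim probe sets, so a small change of CD80 may not be visible. Taken within arrays, the change of CD86 exceeded that of CD80 by 2.71 on the log2 scale. The 2-sided exact permutation p was 0.1, the smallest that 3 arrays against 3 can give. CD86 was read here on 210895_s_at, which its rise picked, so the test is no independent support. By the probe sets brightest in untreated arrays the differences were 0.38 for CD86 and 0.09 for CD80, and neither was called. This pair, and that of CD274 and PDCD1LG2 below, was chosen after the values were seen.

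ICOSLG gave different answers by probe set. The brightest, 213450_s_at, read 6.84, 6.66 and 6.97 in untreated and 7.14, 7.23 and 6.83 in Dll4-Fc arrays, overlapping groups with a difference of 0.25 ± 0.12 (adjusted p = 0.244). The next, 228976_at, lay only 0.01 below it in mean signal (6.94 against 6.95). It read 6.62, 6.66 and 6.83 without and 7.33, 6.98 and 7.20 with Dll4-Fc, with no overlap, and rose by 0.47 ± 0.10 (adjusted p = 0.0185). That call was lost when replicate 1 (adjusted p = 0.0647) or 2 (0.0684) of the untreated arrays was left out, or replicate 1 (0.0684) or 3 (0.0616) of the Dll4-Fc arrays. The other 3 probe sets differed by -0.10 to 0.09 and did not pass. Whether ICOSLG was higher therefore turns on which of 2 nearly equally bright probe sets stands for it. The current gene table also lists LOC102723996, a near copy of ICOSLG, and whether the 5 probe sets read it too was not tested.

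CD40, the receptor for the T cell ligand CD40L, was well measured and did not pass on any of its 4 probe sets. The brightest, 35150_at, read 8.34, 8.35 and 8.49 in untreated and 8.45, 8.51 and 8.38 in Dll4-Fc arrays. The groups overlapped, and the difference was 0.05 ± 0.07 (95% interval -0.12 to 0.22, adjusted p = 0.723). The other 3 differed by 0.12 to 0.23, and 215346_at separated the groups, at 6.90 to 6.96 and 7.02 to 7.11, without passing (0.14 ± 0.06, adjusted p = 0.186). CD83, measured by 1 probe set, read 6.30, 6.61 and 6.14 without and 7.88, 8.18 and 8.12 with Dll4-Fc. Every Dll4-Fc array lay above every untreated one, and the rise was 1.71 ± 0.13 (adjusted p = 9.68e-05).

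**Figure D2:**
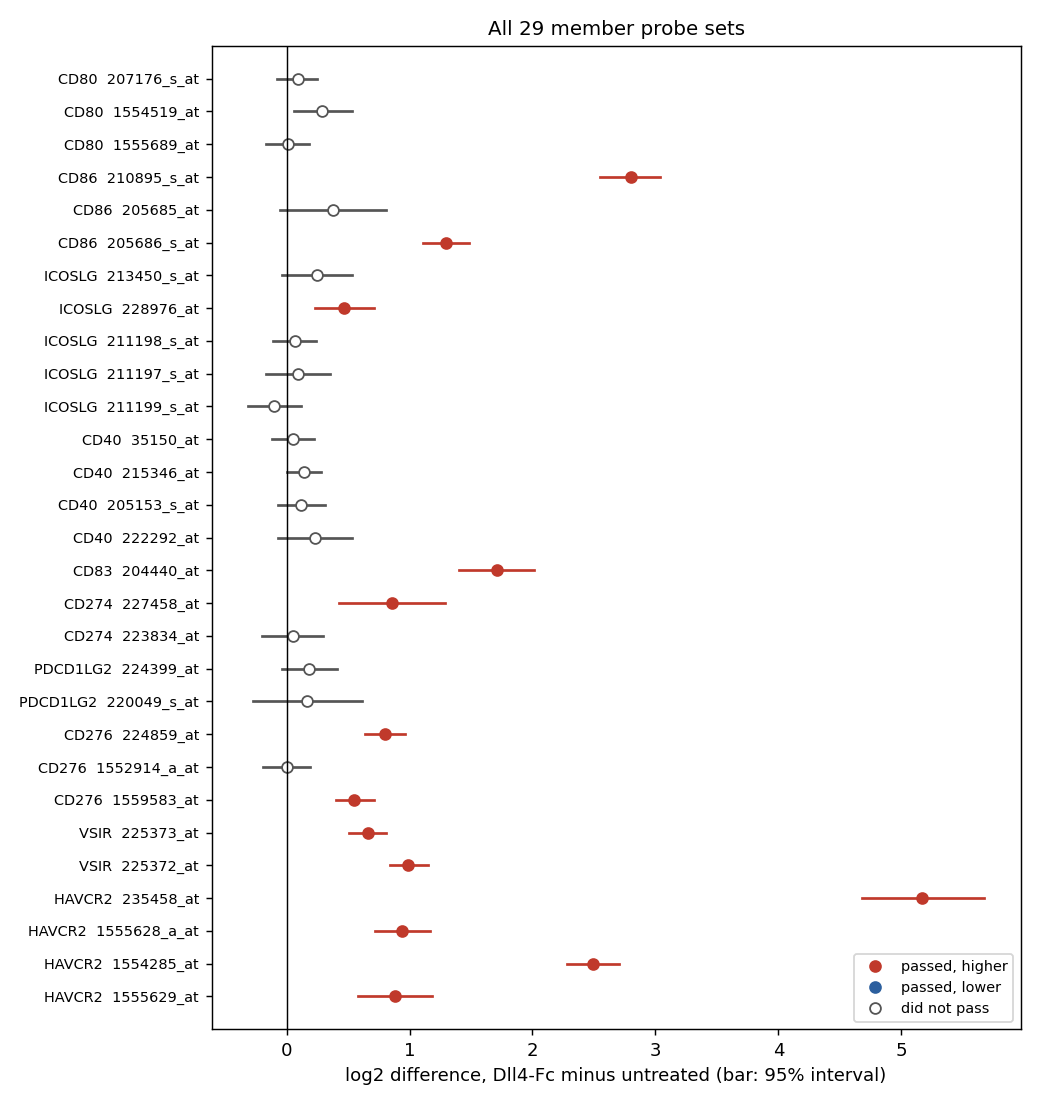
Log2 difference between Dll4-Fc and untreated arrays for all 29 member probe sets, grouped by gene, with limma's 95% interval; filled points passed at an adjusted p under 0.05. The 13 filled points all lie right of 0, from 0.47 for ICOSLG 228976_at to 5.17 for HAVCR2 235458_at, and the open points lie between -0.10 and 0.38.

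Of the PD-1 ligands, CD274 rose on 1 of 2 probe sets. The brighter, 227458_at, read 5.09, 5.27 and 4.60 in untreated and 6.11, 5.83 and 5.61 in Dll4-Fc arrays. The groups did not overlap, and the difference was 0.86 ± 0.19, or 1.82-fold (95% interval 0.43 to 1.29, adjusted p = 0.0165). The call was lost when Dll4-Fc replicate 1 was left out (0.73, adjusted p = 0.0619), and also when replicate 2 was (0.87, adjusted p = 0.0508). The other, 223834_at, read 4.73, 4.81 and 4.80 without and 4.90, 5.00 and 4.58 with Dll4-Fc and differed by 0.05 ± 0.11 (adjusted p = 0.846). The rise of CD274 thus started below the median probe set signal and was seen by 1 of its probe sets.

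PDCD1LG2 was dimmer and did not pass. Its probe set 224399_at read 4.46, 4.34 and 4.26 in untreated and 4.64, 4.62 and 4.35 in Dll4-Fc arrays, overlapping groups with a difference of 0.18 ± 0.10 (95% interval -0.04 to 0.41, adjusted p = 0.275). The second, 220049_s_at, differed by 0.17 ± 0.19 (adjusted p = 0.657). Within arrays, the change of CD274 on 227458_at exceeded that of PDCD1LG2 on 224399_at by 0.68. The 2-sided exact permutation p was 0.1, again the smallest possible, and was not adjusted over the 2 pairs tested. The other CD274 probe set, 223834_at, differed by 0.05, less than either PDCD1LG2 probe set. The direction of this contrast therefore turns on the CD274 probe set. Signals near the floor of the array cannot show that PDCD1LG2 was absent or constant.

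Promoter sequences from RefSeq (GRCh38.p14) were found for 7 of the 10 genes, 10 promoters in all; none was listed under CD40, PDCD1LG2 or HAVCR2. They were searched on both strands for TGGGAA, the core of the site bound by RBPJ, the DNA-binding partner of Notch, for the core of the interferon-stimulated response element, GAAA repeated after any 2 bases, and for TTCNNNGAA, the GAS site of STAT factors. These letters were found in 2 of the 10 promoters, which are shown here because both belong to genes that rose, with the matches in capitals and the sequence running up to the base before the start site. The CD274 stretch, with the interferon-type matches, lies at chr9:5450292-5450541 on the + strand, and the second of 2 CD86 promoters, with the RBPJ letters, at chr3:122077534-122077783 on the + strand.
CD274: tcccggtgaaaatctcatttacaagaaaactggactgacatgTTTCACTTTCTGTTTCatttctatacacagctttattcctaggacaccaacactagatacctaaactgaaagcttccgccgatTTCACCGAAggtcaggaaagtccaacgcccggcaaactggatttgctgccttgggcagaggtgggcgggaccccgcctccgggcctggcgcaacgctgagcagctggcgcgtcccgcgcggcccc
CD86: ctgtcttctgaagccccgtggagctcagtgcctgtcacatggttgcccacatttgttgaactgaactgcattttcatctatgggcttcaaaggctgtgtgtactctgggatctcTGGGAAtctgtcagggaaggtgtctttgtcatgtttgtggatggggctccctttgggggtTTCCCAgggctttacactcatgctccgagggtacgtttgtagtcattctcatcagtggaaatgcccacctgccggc
In CD274 the capitals hold 2 overlapping matches of the response element core on the minus strand, whose leftmost bases lie at -208 and -202 from the start site, and 1 GAS match at -125. In CD86 they hold the RBPJ letters at -136 and their reverse complement at -76. Over 35116 promoters of the same 300-base window, 24% held TGGGAA, 3.57% the response element core and 7.66% TTCNNNGAA. Each of the 3 motifs was held by 1 of the 10 member promoters. That is below the share of all promoters for TGGGAA and above it for the others, and 10 promoters are too few for a comparison. A match describes the letters only, and the probe sets do not show which CD86 promoter was used. The promoters of CD80, CD83, ICOSLG, CD276 and VSIR held none of the 3 motifs in this window.

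Both further B7 checkpoint ligands were bright and rose by modest amounts. CD276 read 9.45, 9.41 and 9.29 in untreated and 10.17, 10.19 and 10.18 in Dll4-Fc arrays on 224859_at. The groups were tight and apart, with a difference of 0.80 ± 0.07, or 1.74-fold (adjusted p = 0.000168). Its probe set 1559583_at was dim and also rose, by 0.55 ± 0.07 (adjusted p = 0.00101), while 1552914_a_at differed by 0.00 ± 0.08 (adjusted p = 0.986). The mean of the probe sets differed by 0.45 for CD276, 1.49 for CD86 and 0.45 for CD274, and each was still called. VSIR rose on both probe sets. On 225373_at it read 8.18, 8.15 and 8.07 without and 8.83, 8.79 and 8.75 with Dll4-Fc, a difference of 0.66 ± 0.07 (adjusted p = 0.000368). On 225372_at it read 7.66, 7.61 and 7.61 without and 8.69, 8.63 and 8.55 with Dll4-Fc, a difference of 0.99 ± 0.07 (adjusted p = 4.36e-05). No array of one group reached the range of the other on either.

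HAVCR2 rose on all 4 probe sets, by amounts that differed widely. The brightest, 235458_at, read 5.20, 5.16 and 4.34 in untreated and 10.06, 10.20 and 9.97 in Dll4-Fc arrays. Untreated replicate 3 was the lowest, and the Dll4-Fc arrays stood close together. The difference was 5.17 ± 0.21 (95% interval 4.68 to 5.67, adjusted p = 2.7e-06), rank 21 from the top among 19775 genes. On 1554285_at the signals went from 5.14, 5.29 and 5.37 to 7.83, 7.62 and 7.84, a rise of 2.49 ± 0.09 or 5.63-fold (adjusted p = 1.31e-06). The probe sets 1555628_a_at and 1555629_at rose by 0.94 ± 0.10 and 0.88 ± 0.13, with no overlap between the groups. The direction was thus the same on all 4, while the size ranged from 1.84-fold to 36.1-fold. On 3 of the 4 the untreated mean lay below the median probe set signal, so the fold is uncertain in size, and the mean of all 4 probe sets gave 2.37.

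**Figure D3:**
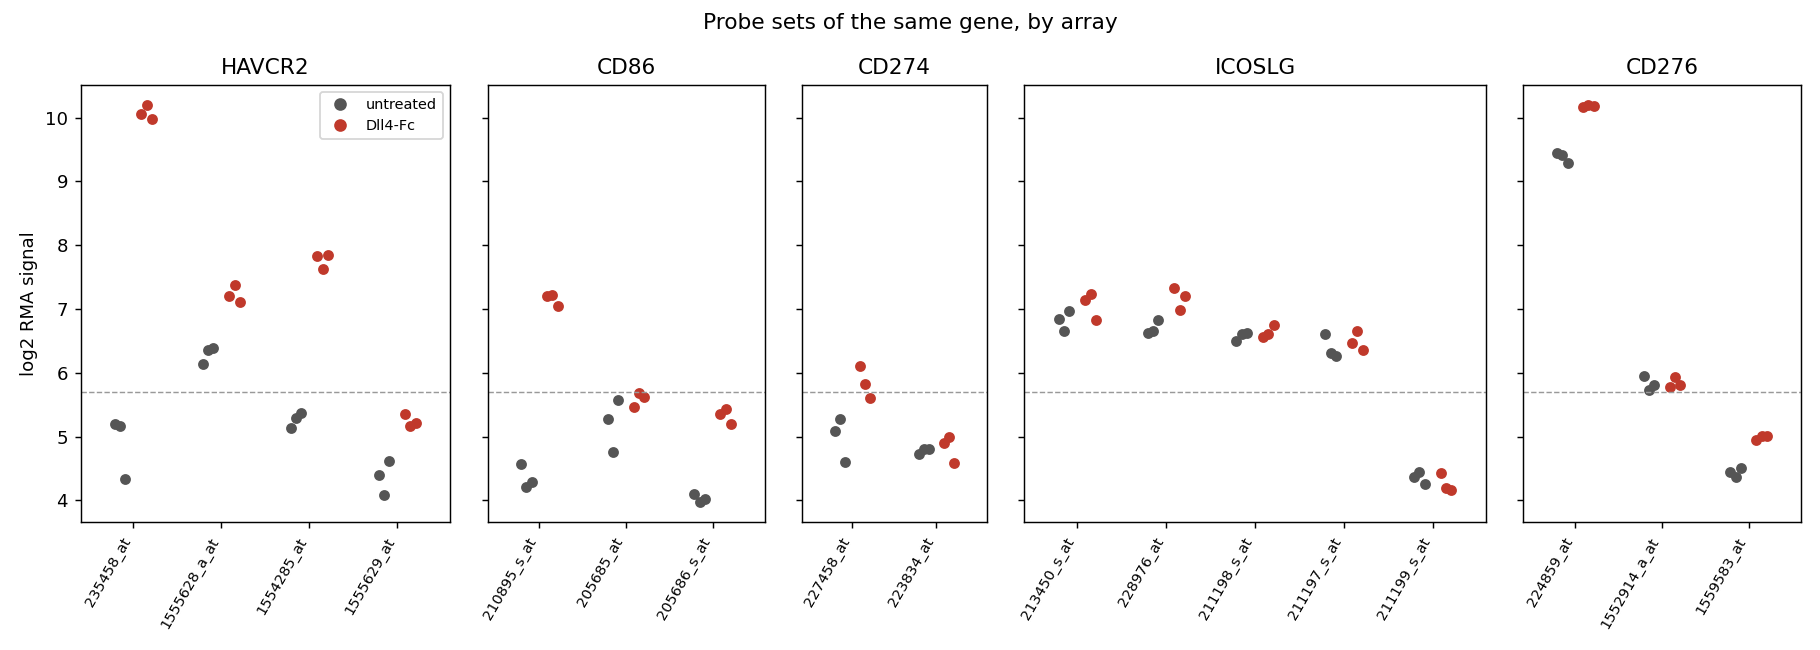
Log2 signal on each array for all probe sets of HAVCR2, CD86, CD274, ICOSLG and CD276 (grey, untreated; red, Dll4-Fc; dashed line, the median of all probe sets). HAVCR2 separates on 4 of 4 probe sets, CD86 on 2 of 3, CD276 on 2 of 3, CD274 on 1 of 2 and ICOSLG on 1 of 5.

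Such spread between probe sets of the same gene was examined for the 9 genes with more than 1, as the largest minus the smallest log2 difference, with the choice of probe sets repeated in each of the 20 assignments of arrays to groups. The spread was 4.30 for HAVCR2, 2.42 for CD86, 0.81 for CD274, 0.80 for CD276, 0.57 for ICOSLG and 0.33 for VSIR. Each had an exact permutation p of 0.1, the smallest this design allows (0.15 adjusted over 9 genes). It was 0.29 for CD80, 0.18 for CD40 and 0.02 for PDCD1LG2, with exact permutation p of 0.3, 0.8 and 1. The design cannot bring such a p under 0.05, so the probe sets are given side by side.

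By the smallest Euclidean distance between log2 signals centred over the 6 arrays, the genes most like HAVCR2 were the potassium channel gene KCNJ2 (distance 0.43, difference 5.02), PRR16 (0.56, difference 5.00) and the proteoglycan gene VCAN (0.58, difference 4.98). With 2 groups of 3 arrays this measure mostly reads the size of the group difference. No member fell, so no gene was sought for a fall.

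Of 29 further costimulatory and checkpoint genes, 8 rose and 1 fell, against 10.1% higher and 12.1% lower among all genes. Their median difference was 0.07. The largest rise was that of SLAMF7, a SLAM family receptor of leukocytes, from 4.09, 3.86 and 4.33 to 7.54, 7.61 and 7.21, a difference of 3.36 ± 0.14 (10.3-fold, adjusted p = 3.35e-06), and it passed on all 3 of its probe sets. The size differed between them: the mean of the 3 gave 1.60, and the one brightest in untreated arrays 0.48 (adjusted p = 0.00877). TNFSF15, a TNF family ligand (TL1A), read 5.09, 4.74 and 5.30 without and 7.29, 7.65 and 7.60 with Dll4-Fc, a rise of 2.47 ± 0.15 (5.53-fold, adjusted p = 3.04e-05), or 1.51 as the mean of its 2 probe sets. LGALS9 encodes galectin-9, a lectin described as a ligand of HAVCR2. It read 8.04, 8.05 and 7.92 without and 9.15, 9.08 and 8.92 with Dll4-Fc, a rise of 1.04 ± 0.08 (2.06-fold, adjusted p = 0.000106). Its only probe set, 203236_s_at, can match several transcripts, so this rise has no check on another one.

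Smaller rises were those of TNFRSF14 (HVEM, a partner of BTLA; 0.42 ± 0.08) and of both sides of the phagocytosis checkpoint, CD47 (0.42 ± 0.08) and its receptor SIRPA (0.42 ± 0.08). CD47 rose on 2 of 7 probe sets, and without probe sets shared between transcripts it gave -0.05 (adjusted p = 0.704). BTN3A1 and BTN3A3, butyrophilins of which the former activates gamma delta T cells, rose by 0.30 ± 0.07 each (adjusted p = 0.0295 and 0.0291). BTN3A1 did not pass when any of 5 single arrays was left out, all but untreated replicate 2 (adjusted p 0.0576 to 0.102), and BTN3A3 when any but Dll4-Fc replicate 2 was (0.0522 to 0.112). The gene that fell was NCR3LG1 (B7-H6, a ligand of an activating NK cell receptor), by 0.39 ± 0.06 on the log2 scale (adjusted p = 0.00396). CD70, a TNF family ligand with an untreated signal of 10.85, differed by -0.07 ± 0.06 and did not pass, and neither did the adhesion ligand CD58 (10.21, difference 0.07 ± 0.07). ICAM1, another adhesion ligand, did not pass on its brightest probe set (0.10 ± 0.06), although 2 of its 3 probe sets rose.

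**Figure D4:**
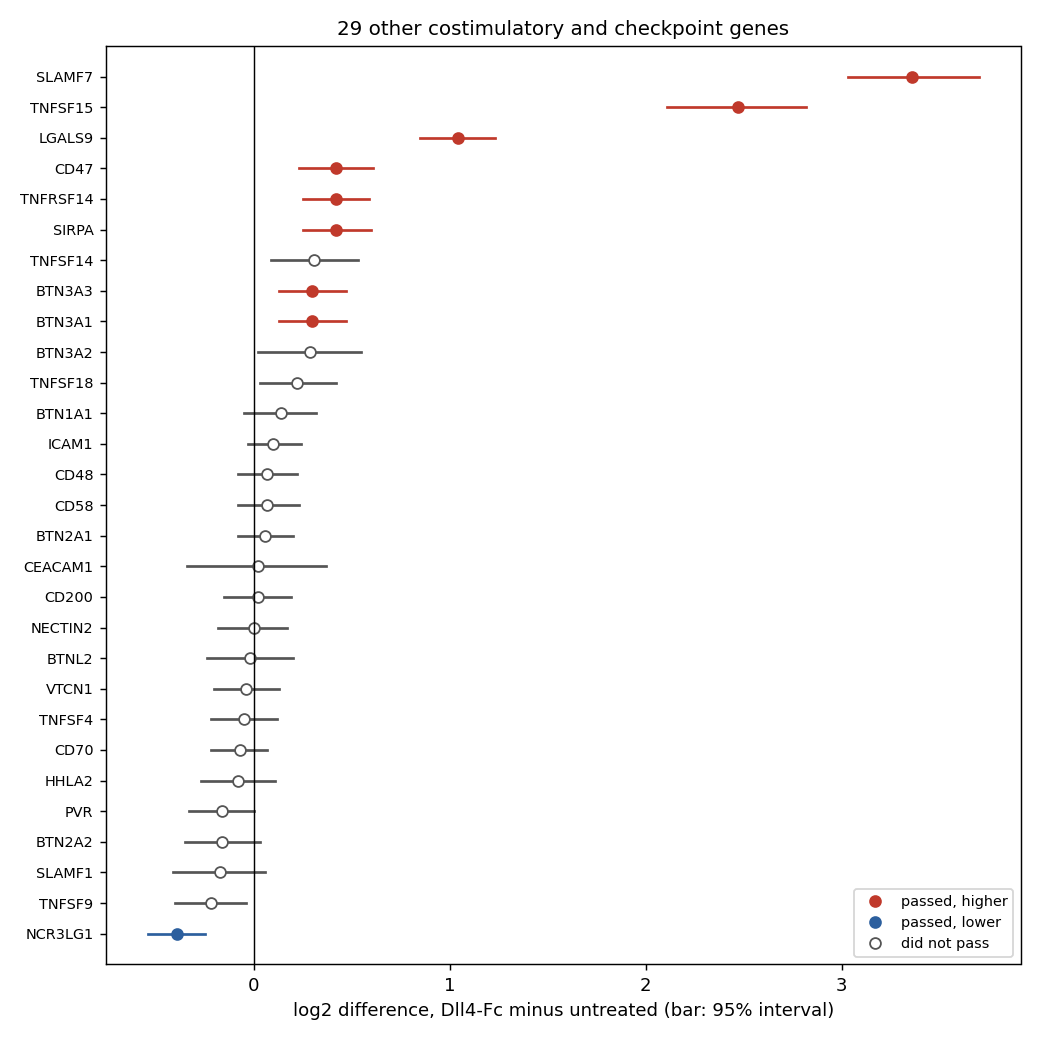
Log2 difference between Dll4-Fc and untreated arrays, by the brightest probe set, for 29 other costimulatory and checkpoint genes, with limma's 95% interval; filled points passed. By these probe sets SLAMF7, TNFSF15 and LGALS9 lie beyond 1, 5 more rises lie between 0.30 and 0.42, and NCR3LG1 is the filled point left of 0.

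Genes acting downstream of CD40 or on the proteins of the group were counted in the same way, beside 10.1% higher and 12.1% lower among all genes. Of 8 measured genes of CD40 signalling 3 rose and 0 fell, with a median difference of 0.09: TRAF5, an adaptor (0.82 ± 0.17), RELB, a subunit of the noncanonical NF-kB pathway (0.45 ± 0.07), and MAP3K14, the kinase of that pathway (0.28 ± 0.07, adjusted p = 0.0321). MAP3K14 did not pass when any single array was left out (adjusted p 0.0615 to 0.117), and TRAF5 was not called as the mean of its probe sets (0.33, adjusted p = 0.0775). TRAF5 rose on 1 of its 2 probe sets, and TRAF5 and MAP3K14 stayed below the median probe set signal in both groups. TRAF2 and BIRC3 were listed but not measured under 1 symbol. MARCHF1, a ubiquitin ligase that takes CD86 from the cell surface, rose from 5.05, 4.95 and 4.66 to 6.58, 6.67 and 6.36 (1.65 ± 0.12, adjusted p = 7.66e-05). CMTM6, which keeps CD274 protein from degradation, was bright and differed by 0.10 ± 0.06 (adjusted p = 0.333); with a trended robust prior it was called higher (adjusted p = 0.027). Its relative CMTM4 fell by 0.73 ± 0.09 on the log2 scale (adjusted p = 0.000871). The array reads RNA, so surface protein was not measured.

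Among all genes 10.1% were called higher and 12.1% lower. The rises among a list of T cell counter-receptors, not all of which bind a member, were near that share. Of 11 measured, 1 rose and 0 fell. It was TNFRSF9 (4-1BB), the receptor of TNFSF9, at 4.86, 5.25 and 5.27 without and 6.22, 6.25 and 6.03 with Dll4-Fc (1.04 ± 0.12, adjusted p = 0.000873). Leaving out probe sets with shared IDs gave 0.35 (adjusted p = 0.0351), and the mean of its 3 probe sets was 0.61. Its ligand gene TNFSF9 differed by -0.22 ± 0.08 and did not pass (adjusted p = 0.101). Of the 11, 8 lay below the median probe set signal. Among receptors of the members, CD28, CTLA4 and ICOS were measured and did not pass. PDCD1 (PD-1) and CD40LG (CD40L) were also listed but were not measured under 1 symbol, so nothing is known of them here.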

How the data were processed

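The authors deposited linear intensities, 1 for each probe set on each array. They come from RMA (background correction, quantile normalization and probe set summary) per the submitters' processing notes, and no version is stated there. Quantile normalization hides changes in total RNA per cell. Per the labels' protocols 5 ng of RNA was amplified before labelling. Array median intensities were 50.6 to 52.7. Quantile normalization makes them alike, so they cannot show whether an array differed in brightness before it. The number of arrays limits the precision. Intensities were log2 transformed and 62 control probe sets left out. Of the 54613 remaining, 41091 had 1 gene symbol in the platform annotation, 1801 several and 11721 none listed; 41037 matched a current gene table by Entrez number and 0 symbols changed. The test was that of limma 3.58.1 under R 4.3.3 (eBayes after lmFit, 2-sided, Benjamini-Hochberg over all probe sets, threshold 0.05), without a block; the procedure was tested on simulated data. Each gene was read on its brightest probe set by mean signal over the 6 arrays, so a rise can pick the probe set; the highest untreated mean was an alternative added after the data were seen. Folds are powers of 2 of the log2 difference. All 10 members and the genes of the other lists past the threshold could be named, with CMTM6 and the largest others; CD70, CD58 and ICAM1 were named after their values were seen. The members and lists were chosen with earlier results of these data known. The alternatives were the replicate block, each array left out, cyclic loess, median centring, no dim probe sets, a trended robust prior, array weights, a gene table, means of probe sets, and no shared probe sets. A planned comparison of protein sequences was not made.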

Additional observations from a re-analysis of the deposited data

How the results depend on the processing

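The member genes stayed at 0 lower under every alternative and at 5 to 7 higher. The member probe sets stayed at 0 lower and 9 to 16 higher. With array weights 7 of 10 member genes and 16 of 29 member probe sets were higher. Among all features, 2335 of 19775 genes and 4912 of 54613 probe sets were. Without dim probe sets, 16 of the 29 probe sets and 7 of the 10 genes remained. Of these, 9 probe sets and 5 genes were higher, against 3979 of 27307 probe sets and 2145 of 12748 genes. That filter used the mean of all 6 arrays, so HAVCR2 235458_at and 1554285_at and CD86 210895_s_at remained only through their Dll4-Fc signal, and it is no check of their rise. The lower count of the other costimulatory genes was 2 in place of 1 without dim probe sets and with array weights, and 1 to 2 over the single arrays left out. The replicate numbers did not pair the arrays (correlations of deviations -0.058, -0.175 and -0.140), so the block is only an alternative. With the replicate block 1585 in place of 2391 of all genes were lower, and the members stayed at 6 genes and 13 probe sets higher; it ended the calls of BTN3A1, BTN3A3 and MAP3K14. Leaving out 1 array gave 1319 to 2531 lower genes and 2906 to 5629 lower probe sets. Values near 0 that never passed changed sign: with 1 array left out, CD80 1555689_at gave -0.06 to 0.04, CD276 1552914_a_at -0.05 to 0.06, CD274 223834_at -0.04 to 0.17 and PDCD1LG2 220049_s_at -0.05 to 0.38. With median centring the first gave -0.00 and the second -0.01. CD47 gave -0.05 without shared probe sets. With array weights CD80 1554519_at (0.30, adjusted p = 0.0356), CD86 205685_at (0.57, 0.0441) and ICOSLG 213450_s_at (0.36, 0.0421) passed; CD80 1554519_at also passed without Dll4-Fc replicate 3, and CD86 205685_at without untreated replicate 3. HAVCR2, CD86, CD83, CD276 and VSIR passed under every alternative, except CD86 without shared probe sets or by the probe set brightest in untreated arrays. Causes were not tested. Dim probe sets limit CD80, PDCD1LG2, CD274 and CD86, and the size of the HAVCR2 rise. Counting the motifs before the start alone gave 20.8% of promoters with TGGGAA, 3.02% with the response element core and 6.57% with TTCNNNGAA, and the same 2 member promoters.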
